A study of Rattus norvegicus with 105 samples.

Results

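The p53 target genes described here were 9 rat genes, Mdm2, Cdkn1a, Ccng1, Plk2, Btg2, Gadd45a, Bax, Phlda3 and Sesn1, chosen by symbol as genes that the transcription factor p53 is known to switch on. All 9 were found in the table, each with 1 probe, among 20946 gene symbols and 22253 probes. The cells were primary hepatocytes from female rats of the Sprague-Dawley strain, bought as a single lot, which had been exposed for 24 hours to a nitroalkane, to a reference compound or to a control. RNA was profiled with TempO-Seq, in which paired detector oligonucleotides are joined on each target RNA and then counted by sequencing. The 105 libraries fell into 35 groups of 3. In set 1 (72 libraries, by the prefix of the library names) stood nitromethane (NM) and nitroethane (NE), each at 8 concentrations from 0.003 to 10 mM (rising about 3-fold a step), with DMSO, plain medium, benzo[a]pyrene (BAP) at 50 µM, CITCO (10 or 20 µM), rifampin (20 or 40 µM) and WY-14643. In set 2 (33 libraries) stood 1-nitropropane (1NP) at the same 8 concentrations, with its own DMSO, medium and WY-14643 wells. The nitroalkanes differ in chain length, each longer by a carbon than the last. No group carried a genetic change. The cells came from 1 lot, so p-values reflect variation among wells, not among animals. Some labels disagree: the nitroalkane titles give µM where the protocol gives mM (used here), DMSO is 0.5 in its titles and 0.2% in the protocol, WY-14643 of set 2 is titled 50 µM with 100 in the library names, and the panel is called human while the symbols are rat. Whether DMSO was present in the nitroalkane wells is not stated, so every nitroalkane group was compared with both DMSO and medium of its own set.

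p53 is held at a low level by Mdm2, a ubiquitin ligase that marks it for destruction and whose own gene p53 induces, so that the pair forms a feedback loop. When DNA is damaged, checkpoint kinases release p53 from this hold, and it raises genes that stop the cell cycle, help repair or start cell death. In liver this response is known after DNA-binding carcinogens such as BAP, which cytochrome P450 enzymes turn into epoxides that attach to DNA and which also activates the aryl hydrocarbon receptor (AhR), a transcription factor of its own.

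Promoter sequence was taken for the 3 members with the largest rise under BAP of those raised against DMSO, to show what lies before their starts. RefSeq (build GRCr8) gave a promoter for 8 of the 9 members; Bax had no entry. The 250 bases before the annotated start are printed 5′ to 3′ on the gene's strand. Capitals mark the p53 response element decamer, searched by its usual consensus, or the AhR response element core GCGTG; both were searched on both strands, and their matches did not overlap. Cdkn1a lies on the plus strand and the window is chr20:7150682-7150931. Mdm2 lies on the minus strand with the window chr7:55200792-55201041, and Plk2 on the plus strand with chr2:43702286-43702535.
Cdkn1a: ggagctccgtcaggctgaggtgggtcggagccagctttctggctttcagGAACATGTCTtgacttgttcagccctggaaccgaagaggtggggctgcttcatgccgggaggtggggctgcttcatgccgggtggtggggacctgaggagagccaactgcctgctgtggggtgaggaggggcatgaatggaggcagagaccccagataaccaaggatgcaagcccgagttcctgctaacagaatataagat
Mdm2: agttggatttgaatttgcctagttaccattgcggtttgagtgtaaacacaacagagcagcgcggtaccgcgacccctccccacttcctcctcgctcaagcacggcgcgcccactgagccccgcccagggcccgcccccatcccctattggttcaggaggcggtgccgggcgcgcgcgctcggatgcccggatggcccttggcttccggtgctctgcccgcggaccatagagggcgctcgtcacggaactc
Plk2: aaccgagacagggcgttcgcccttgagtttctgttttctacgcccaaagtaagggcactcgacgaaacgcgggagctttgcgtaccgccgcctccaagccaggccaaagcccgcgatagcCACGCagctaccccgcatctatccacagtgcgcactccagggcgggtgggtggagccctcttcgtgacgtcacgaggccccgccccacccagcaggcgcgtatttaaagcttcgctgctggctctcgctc
The Cdkn1a window held 1 p53 decamer, the Plk2 window 1 AhR core on the other strand, and the Mdm2 window neither. Among the 8 members with a window, 4 held the p53 decamer (Cdkn1a, Ccng1, Gadd45a and Sesn1), against 6.64% of 33469 rat promoters of the same length. The AhR core was found in 4 (Btg2, Ccng1, Plk2 and Sesn1), against 25.9% of all promoters. A match describes letters only. The known p53 sites of Mdm2 lie in the first intron, and those of Cdkn1a include sites farther upstream than this window.

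Levels are given in CPM (each count scaled to a library total of 1000000), which are not comparable between genes because probes differ. Bax was counted at 475 to 1343 CPM over the 105 libraries, Gadd45a at 126 to 354, Mdm2 at 101 to 319, Plk2 at 81.8 to 316, Btg2 at 28.6 to 99.0 and Phlda3 at 24.0 to 81.7. The other 3 had low counts. Cdkn1a ran from 2.29 to 15.0 CPM, Ccng1 from 0 to 21.4 and Sesn1 from 0.13 to 3.79, and Ccng1 had 3 counts or fewer in 8 libraries and Sesn1 in 3. Ccng1 also had the widest range of group means, with a 26.0-fold difference between the lowest group (NM 0.01 mM) and the highest (1NP 10 mM), against 2.00-fold for Phlda3. Library totals ran from 5475419 to 11122665 counts (median 8680678). Of the hepatocyte genes, 12 of 14 were found and none had a median of 0, while all endothelial, lymphocyte and erythroid probes had a median of 0. The median was also 0 for 5 of 9 stellate cell, 7 of 10 Kupffer cell and 2 of 7 cholangiocyte probes, and above 0 for the rest. Libraries that stood apart were replicate 3 of NM 10 mM, replicate 1 of NM 3 mM and of NM 1 mM, replicate 3 of NE 0.01 mM, replicate 2 of NE 10 mM (21627 probes with a count, against a median of 13792) and replicate 3 of 1NP 10 mM. In that order, their median correlations with their group were 0.967, 0.967, 0.979, 0.984, 0.952 and 0.970 (median 0.994 over all libraries). No cut-off is stated for this list. It leaves out 1NP 0.003 mM replicate 3 (16457 probes with a count) and NE 1 mM replicate 3 (16178).

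Under BAP at 50 µM several p53 target genes rose together. Mdm2, Plk2 and Phlda3 rose against both controls, and Cdkn1a and Gadd45a rose against DMSO. Against DMSO 5 of 9 members were called higher and 0 lower, where 9.17% of all probes tested were called. Against medium 3 of 9 were called, where 19.7% of all probes were. The median log2 fold change of the 9 members was 0.49 against DMSO and 0.40 against medium, beside 0.0021 and 0.0069 over all probes.

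Mdm2, the feedback ligase, was counted at 319, 309 and 286 CPM in the BAP wells, at 173, 176 and 179 CPM in DMSO and at 207, 192 and 214 CPM in medium. All 3 BAP libraries lay above all 6 control libraries. The log2 fold change was 0.73 ± 0.09 (SE) against DMSO (edgeR adjusted p = 1.58e-06) and 0.56 ± 0.09 against medium (adjusted p = 4.33e-05). Plk2, a polo-like kinase, stood at 284, 263 and 316 CPM under BAP, at 131, 128 and 130 CPM in DMSO and at 128, 163 and 143 CPM in medium. Here too the groups did not overlap, and the log2 fold change was 1.08 ± 0.12 against DMSO (adjusted p = 1.42e-07) and 0.97 ± 0.12 against medium (adjusted p = 4.91e-07). Cdkn1a encodes p21, the inhibitor of cyclin-dependent kinases that carries much of the p53 arrest. It was counted at 9.53, 11.8 and 15.0 CPM under BAP, at 4.62, 5.07 and 5.46 CPM in DMSO and at 5.91, 8.27 and 10.1 CPM in medium. The BAP libraries lay above DMSO without overlap (log2 1.19 ± 0.27, adjusted p = 0.00375), but the lowest of them lay below the highest medium library (log2 0.55 ± 0.26, adjusted p = 0.152).

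Phlda3, a membrane-bound repressor of the survival kinase Akt, stood at 51.8, 69.5 and 63.0 CPM under BAP, at 36.7, 39.1 and 37.2 CPM in DMSO and at 42.0, 49.0 and 46.9 CPM in medium. It rose by 0.64 ± 0.12 log2 against DMSO (adjusted p = 0.000362) and by 0.40 ± 0.12 against medium (adjusted p = 0.0164). The call against medium was lost without BAP replicate 2 or medium replicate 1 (log2 0.29 to 0.50 over the 6 libraries left out in turn, adjusted p up to 0.133). Gadd45a, which acts in repair and stress signalling, rose against DMSO only (log2 0.49 ± 0.12, adjusted p = 0.00918) and stood 0.14 ± 0.12 lower against medium (adjusted p = 0.467). Its call was lost without DMSO replicate 2 or BAP replicate 3 (log2 0.38 to 0.59, adjusted p up to 0.0586). Bax, the pore-forming death protein (0.06 ± 0.10 against DMSO), Btg2, an antiproliferative adaptor (fold change −0.24 ± 0.11), Ccng1, the cyclin that works with Mdm2 (−0.01 ± 0.76), and Sesn1, an antioxidant and nutrient-sensing regulator (0.36 ± 0.52), did not pass the test.

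**Figure D1:**
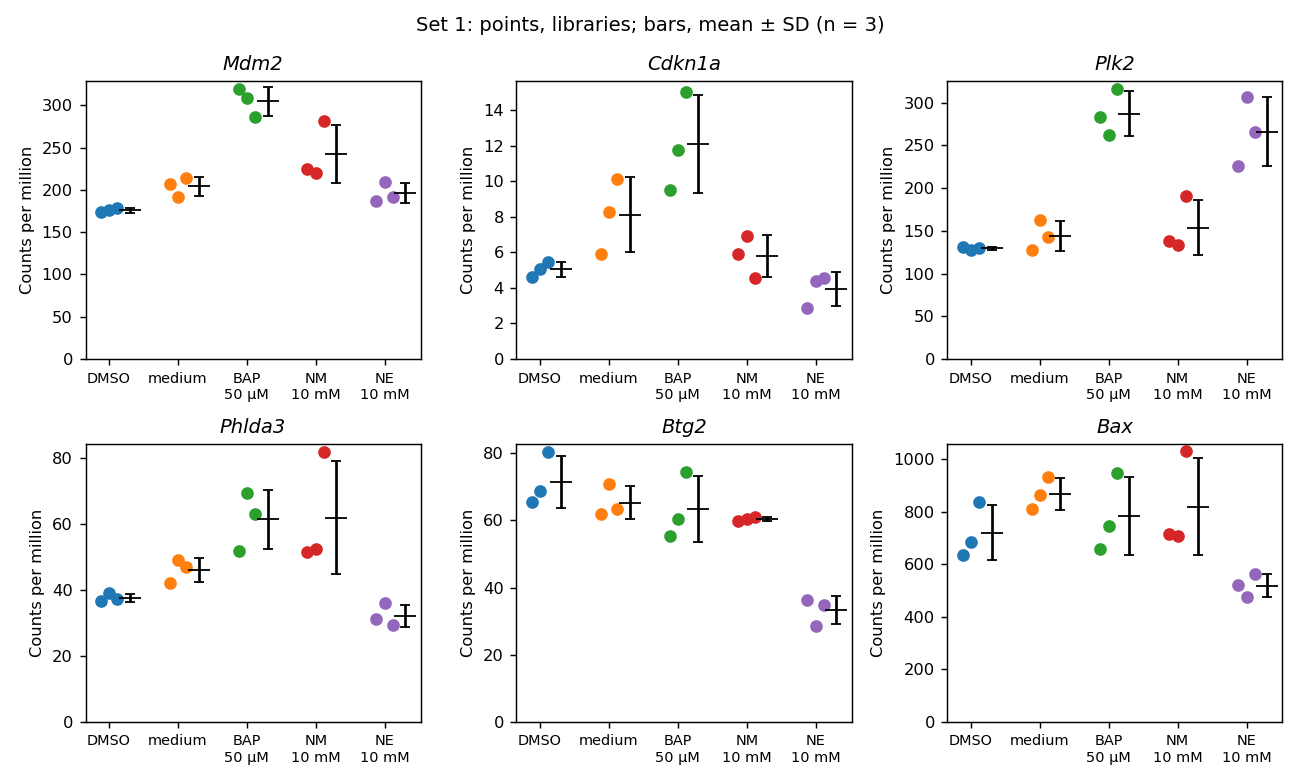
CPM (vertical axes, from 0) of Mdm2, Cdkn1a, Plk2, Phlda3, Btg2 and Bax in the DMSO, medium, BAP 50 µM, NM 10 mM and NE 10 mM libraries of set 1, with points for libraries and bars for mean ± SD (n = 3). The 3 BAP points of Mdm2 (286 to 319) and Plk2 (263 to 316) lie above all control points, and the NE 10 mM points of Btg2 (28.6 to 36.4) and Bax (475 to 561) lie below them.

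Of the other p53 pathway genes, held in 5 lists of regulators, arrest, apoptosis, repair and metabolism genes (44 probes of 40 genes, 42 tested), 9 probes rose and 3 fell under BAP against DMSO, where 9.17% of all probes were called, and 6 rose and 4 fell against medium, where the count was near the 19.7% of all probes. Gdf15, a secreted stress signal, rose by 1.14 ± 0.16 log2 against DMSO (adjusted p = 3.60e-05) and 0.61 ± 0.16 against medium (adjusted p = 0.00874). Perp, a desmosome protein with a role in cell death, rose by 0.76 ± 0.17 and 1.03 ± 0.18, and Ei24, an endoplasmic reticulum protein, by 0.47 ± 0.08 and 0.67 ± 0.08. Gtse1, a mitotic protein that restrains p53, rose against DMSO (1.01 ± 0.25). Among the genes that moved the other way, Pmaip1 (Noxa, a death inducer) fell by 1.73 ± 0.25 log2 against medium. Its mean was 56.0 CPM under BAP, 182 CPM in medium and 84.0 CPM in DMSO, so the controls themselves differed. Apaf1, the apoptosome scaffold, fell by 0.65 ± 0.17 against medium, and Pcna, the replication clamp, fell by 0.48 ± 0.13 against DMSO. Of the 11 tested probes of cell cycle genes that are lowered through p21, 2 fell against DMSO and 1 against medium. Mki67, the proliferation marker, fell by 1.35 ± 0.20 and by 0.85 ± 0.20. The summed level of the hepatocyte genes was 17948 to 19936 CPM under BAP, 22638 to 24852 in DMSO and 10952 to 13848 in medium, and that of the cholangiocyte genes 383 to 431, 545 to 624 and 627 to 737; their part in these results was not tested.

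NE at 10 mM split the p53 target genes. Plk2 and Ccng1 rose against both controls, while Btg2, Gadd45a and Bax fell against both, and Cdkn1a and Phlda3 fell against medium. Against DMSO 2 members rose and 3 fell, where 28.9% of all probes were called, and against medium 2 rose and 5 fell, where 34.0% of all probes were called. Mdm2 and Sesn1 were not called in either comparison. The median of the 9 members was −0.29 log2 against DMSO and −0.53 against medium, beside 0.026 and 0.029 over all probes.

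Plk2 was counted at 226, 307 and 266 CPM at NE 10 mM, above every DMSO and medium library (128 to 163 CPM). It rose by 0.97 ± 0.13 log2 against DMSO (adjusted p = 3.94e-06) and 0.87 ± 0.14 against medium (adjusted p = 1.79e-05). Btg2 stood at 36.4, 28.6 and 34.7 CPM, against 65.5, 68.7 and 80.3 in DMSO and 61.8, 70.9 and 63.3 in medium. The lowest control library was thus well above the highest NE library, and Btg2 fell by 1.15 ± 0.18 log2 against DMSO (adjusted p = 2.00e-05) and by 0.96 ± 0.18 against medium (adjusted p = 0.000137). Bax stood at 520, 475 and 561 CPM, against 636, 684 and 837 in DMSO and 810, 863 and 931 in medium. It fell by 0.52 ± 0.14 log2 against DMSO (adjusted p = 0.00661) and by 0.73 ± 0.14 against medium (adjusted p = 0.000173); the call against DMSO was lost without DMSO replicate 3 (log2 fold change −0.41, adjusted p = 0.0640). Gadd45a stood at 137, 128 and 163 CPM, against 188, 181 and 205 in DMSO and 262, 302 and 354 in medium. Its fall was 1.09 ± 0.14 log2 against medium (adjusted p = 8.42e-07), and against DMSO the log2 fold change was −0.47 ± 0.13 (adjusted p = 0.00726). Without NE 10 mM replicate 2, the library with counts in 21627 probes, the Gadd45a call against DMSO was lost (log2 fold change −0.31, adjusted p = 0.0544).

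Cdkn1a stood at 2.85, 4.39 and 4.55 CPM at NE 10 mM and fell by 1.05 ± 0.38 log2 against medium (adjusted p = 0.0345), a call that was lost without medium replicate 2 or 3 or NE 10 mM replicate 1 or 2 (log2 fold change −1.24 to −0.87, adjusted p up to 0.135). Against DMSO its difference was −0.42 ± 0.38. Phlda3 stood at 31.2, 36.0 and 29.3 CPM and fell by 0.53 ± 0.14 log2 against medium (adjusted p = 0.00565), with −0.29 ± 0.14 against DMSO. Mdm2, at 187, 210 and 192 CPM, differed by 0.09 ± 0.13 from DMSO and by −0.06 ± 0.13 from medium. In bulk samples such as these, fewer cells of a type and less RNA per cell cannot be told apart.

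At NE 3 mM fewer members moved. Against DMSO only Plk2 was called of the 9 (190, 177 and 160 CPM, log2 0.46 ± 0.13, adjusted p = 0.0386), where 6.08% of all probes were, and against medium Ccng1 rose and Mdm2 fell, where 11.5% were. Mdm2 was counted at 166, 147 and 111 CPM at NE 3 mM, each below the medium libraries (192 to 214 CPM), with a log2 fold change of −0.46 ± 0.13 against medium (adjusted p = 0.0196). These calls were not stable to leaving out 1 library. The Plk2 call was lost without any DMSO library or without NE 3 mM replicate 1 or 2 (log2 0.40 to 0.52, adjusted p up to 0.122), and the Mdm2 call without medium replicate 1 or 3 or NE 3 mM replicate 3 (log2 fold change −0.59 to −0.31, adjusted p up to 0.147). With same-numbered libraries treated as pairs (replicate block; their deviations correlated at 0.100 to 0.514 in this comparison), Gadd45a (log2 0.40, adjusted p = 0.0419) and Ccng1 (log2 1.81, adjusted p = 0.0289) were called against DMSO as well.

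Over the whole NE series the slope, the log2 change per step of concentration with the control as step 0, was tested over 27 libraries. With DMSO as step 0, 5 of 9 members had a slope that passed the test, where 30.8% of all probes did, and with medium 7 of 9, where 34.2% did. Plk2 rose by 0.086 ± 0.012 log2 per step from DMSO (adjusted p = 4.13e-06), and kept the call without the 10 mM wells (0.059, adjusted p = 0.0118). Btg2 (−0.076 ± 0.016) and Gadd45a (−0.043 ± 0.012) fell from DMSO over the whole series, but without the 10 mM wells neither was called, and the slope of Gadd45a was then above 0 (0.027, adjusted p = 0.176). The Bax slope from DMSO was lost in 13 of the 27 fits that left out 1 library (adjusted p up to 0.135), and the Phlda3 slope from medium in 7 of 27 (adjusted p up to 0.0940).

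In the wider p53 lists more probes fell than rose at NE 10 mM, and most were not called lower. Of 42 tested probes, 3 rose and 14 fell against DMSO (28.9% of all probes called in either direction) and 4 rose and 18 fell against medium (34.0% of all probes), with list medians of −0.23 and −0.33 log2. Apaf1 fell by 1.44 ± 0.15 log2 against DMSO and by 1.67 ± 0.15 against medium, Gtse1 by 1.22 ± 0.22 and by 1.64 ± 0.21, and Gdf15 by 0.94 ± 0.15 and by 1.46 ± 0.14. Pmaip1 fell by 1.53 ± 0.20 and Bak1, a pore-forming death protein like Bax, by 1.05 ± 0.22 against medium. The Pmaip1 mean was 62.1 CPM at NE 10 mM, against 182 CPM in medium and 84.0 CPM in DMSO. Chek1, a checkpoint kinase, rose by 1.26 ± 0.24 against DMSO and 1.46 ± 0.25 against medium, and Ninj1, which takes part in membrane rupture of dying cells, by 0.98 ± 0.27 against DMSO. Of the 11 tested p21-lowered cell cycle probes, 6 fell against DMSO and 7 against medium at 10 mM, and 6 against each control at 3 mM, with none higher. Cdkn1a, with 23 to 41 counts a library at 10 mM and 27 to 50 at 3 mM, was not called higher at either concentration. The part of p21 in these falls was not tested. Mki67 fell by 1.50 ± 0.29 log2 against DMSO at 10 mM and by 1.29 ± 0.29 at 3 mM, and Mcm2, a replication helicase subunit, by 0.92 ± 0.18 at 3 mM. At 3 mM, where 6.08% and 11.5% of all probes were called, 1 of the 42 wider probes fell against DMSO (Cd82, a tetraspanin, by 0.40 ± 0.12), and 6 fell against medium, among them Pmaip1 (by 1.48 ± 0.20), Gtse1 (by 0.92 ± 0.20), Pml (by 0.70 ± 0.15) and Apaf1 (by 0.66 ± 0.14). At NE 10 mM the summed cholangiocyte genes were at 224 to 287 CPM (545 to 624 in DMSO, 627 to 737 in medium) and the hepatocyte genes at 9638 to 12723 CPM (22638 to 24852 and 10952 to 13848); their part in the results was not tested.

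NM at 10 mM raised 3 members against DMSO, Ccng1, Phlda3 and Mdm2, where 7.19% of all probes were called, and 1 against medium, Ccng1, where 0.662% were. Phlda3 stood at 51.6, 52.4 and 81.7 CPM, above the DMSO (36.7 to 39.1 CPM) and medium (42.0 to 49.0 CPM) libraries. The log2 fold change was 0.60 ± 0.15 against DMSO (adjusted p = 0.0150) and 0.37 ± 0.16 against medium (adjusted p = 0.281). Mdm2 stood at 225, 220 and 282 CPM, again above both controls, with 0.35 ± 0.10 against DMSO (adjusted p = 0.0244) and 0.19 ± 0.10 against medium (adjusted p = 0.366). Replicate 3 was the highest of both genes and stood apart. Both calls were lost without it or without any DMSO library, with log2 0.40 to 0.69 for Phlda3 (adjusted p up to 0.146) and 0.27 to 0.39 for Mdm2 (adjusted p up to 0.157). In the same library Gadd45a was at 157 CPM, against 322 and 333 in the other 2, and Bax at 1030, against 716 and 708. Without the NM libraries that stood apart, edgeR called Gadd45a higher than in DMSO (log2 0.71, adjusted p = 8.72e-08). Bax was then called lower than in medium (log2 fold change −0.31, adjusted p = 0.0238). How many of all probes were called in these fits is not given, so the gain may not be particular to these members. Cdkn1a (5.88, 6.93 and 4.56 CPM, log2 0.11 ± 0.22 against DMSO), Plk2 (138, 133 and 190 CPM, 0.14 ± 0.12) and Btg2 (59.9, 60.5 and 60.9 CPM, fold change −0.34 ± 0.11) were not called. Of the 43 tested wider p53 probes, 2 rose and 1 fell against DMSO and edgeR called 0 against medium (9 at an unadjusted p under 0.05). Pmaip1 rose by 0.57 ± 0.13 log2 against DMSO, where its mean was 84.0 CPM. At NM 10 mM the mean was 134 CPM, below the 182 CPM of medium. None of the 10 tested p21-lowered probes was called against either control (1 with DMSO and 2 with medium at an unadjusted p under 0.05). The summed cholangiocyte genes were at 829 to 1221 CPM at NM 10 mM, with 2 of 4 tested probes called higher than in DMSO (545 to 624 CPM) and 0 than in medium (627 to 737 CPM). The summed hepatocyte genes were at 12468 to 13487 CPM, with 8 of 12 probes called lower than in DMSO (22638 to 24852 CPM) and 1 called higher than in medium (10952 to 13848 CPM); their part in the NM results was not tested.

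**Figure D2:**
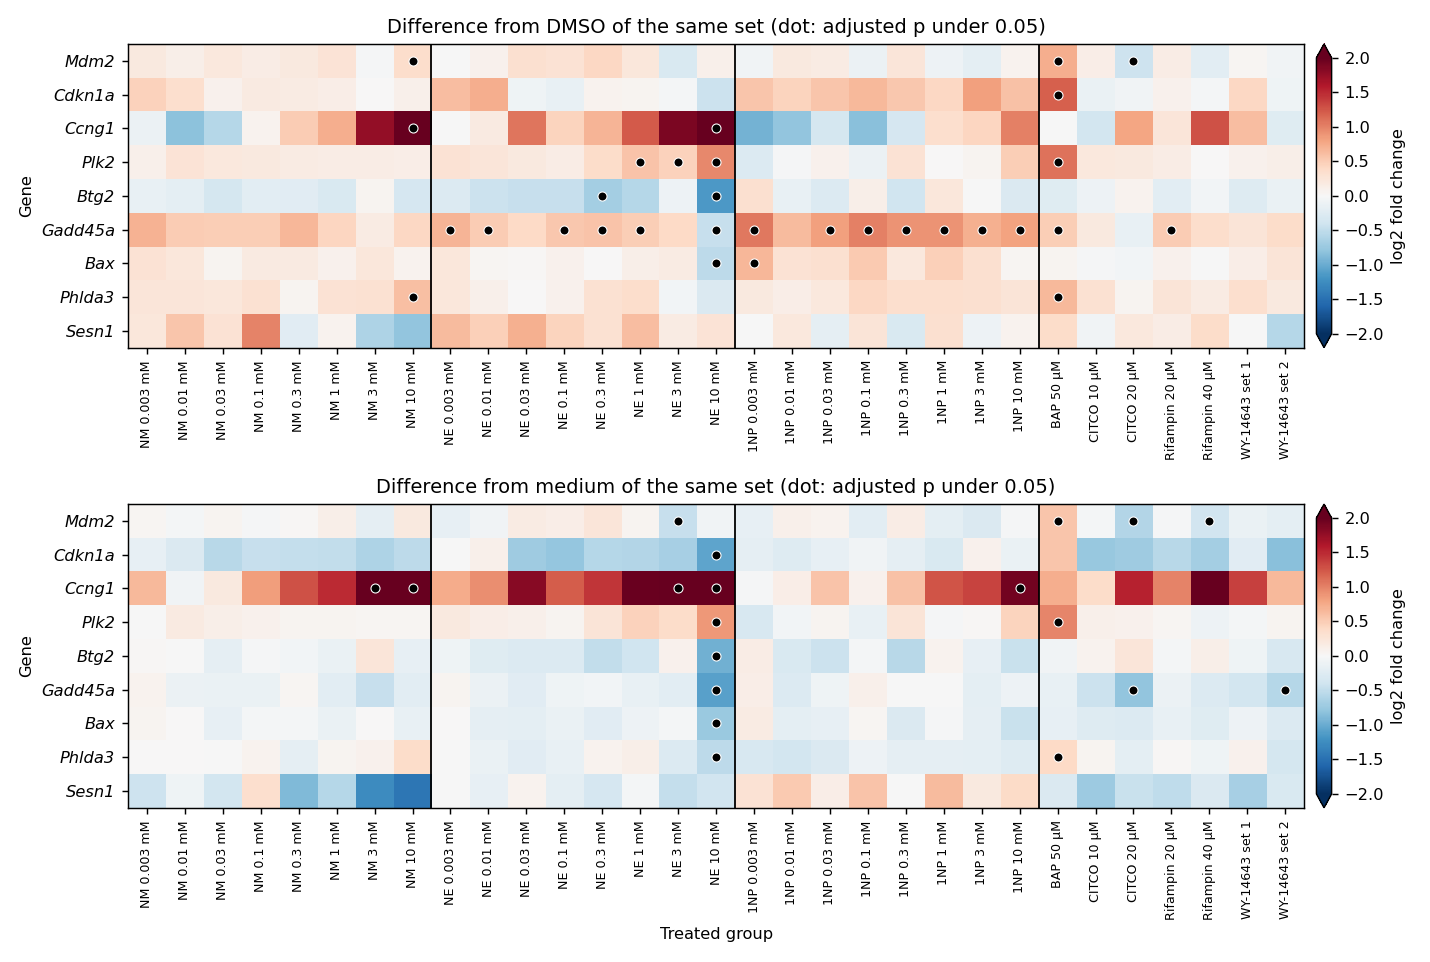
Log2 fold changes (colour, from −2 in blue to 2 in red) of the 9 genes (rows) in each treated group (columns) against DMSO (top) and medium (bottom) of its own set, with a dot where the edgeR adjusted p was under 0.05. Dots lie on 5 genes for BAP against DMSO and on 7 for NE 10 mM against medium, and the row of Gadd45a dots seen with DMSO is absent with medium.

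Ccng1 was the member whose level moved most with nitroalkane concentration. At 10 mM it was counted at 5.88, 4.47 and 6.64 CPM with NM, at 6.93, 8.52 and 2.55 CPM with NE and at 10.8, 21.4 and 12.1 CPM with 1NP. DMSO held 1.42, 0.69 and 0.78 CPM in set 1 and 4.54, 7.60 and 9.12 CPM in set 2, and medium held 0.81, 0 and 0.91 CPM and 3.50, 0.34 and 8.56 CPM. The 10 mM libraries did not overlap their controls, and the controls of set 2 lay above those of set 1 in 5 of 6 libraries. The log2 fold change at NM 10 mM was 2.43 ± 0.48 against DMSO (adjusted p = 0.00241) and 3.19 ± 0.61 against medium (adjusted p = 0.0176), and at NE 10 mM 2.53 ± 0.67 (adjusted p = 0.00556) and 3.29 ± 0.78 (adjusted p = 0.00165). For 1NP 10 mM it was 1.01 ± 0.36 against DMSO, which was not called (adjusted p = 0.163), and 1.93 ± 0.55 against medium (adjusted p = 0.0329). Ccng1 was also called against medium at NM 3 mM (2.52 ± 0.62) and NE 3 mM (2.65 ± 0.79). All these values rest on few counts, and several calls depended on 1 library. The NM 10 mM call against medium was lost without medium replicate 1 or 2 or NM 10 mM replicate 3 (log2 2.65 to 3.67, adjusted p up to 0.0965). The 1NP call was lost without medium replicate 4 or 5 or 1NP 10 mM replicate 2 or 3 (log2 1.32 to 3.06, adjusted p up to 0.143). At 3 mM both calls were lost without any medium library, that of NM also without NM 3 mM replicate 1 (log2 1.98 to 3.00, adjusted p up to 0.129) and that of NE also without NE 3 mM replicate 1 or 2 (log2 2.10 to 3.12, adjusted p up to 0.116).

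The Ccng1 slope passed the test for each nitroalkane with each control. It was 0.33 ± 0.05 log2 per step for NM from DMSO and 0.38 ± 0.06 from medium, where 8.93% and 8.84% of all probes had a slope that passed, and Ccng1 was the only member that did. For NE it was 0.29 ± 0.06 and 0.34 ± 0.07. For 1NP it was 0.17 ± 0.03 and 0.23 ± 0.05, again the only member, where 1.58% and 11.6% of all probes passed. These calls held with each of the 27 libraries of a fit left out in turn. Without the 10 mM wells the NM and NE slopes were still called (0.24 to 0.31) and the 1NP slopes were not (0.12 and 0.20, adjusted p = 0.111 and 0.0543).

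Concentration and plate row coincided in both sets: each nitroalkane ran from 0.003 mM in row A to 10 mM in row H, per the positions in the library names. The control and reference groups of set 1 lay in the rows too, and Ccng1 was higher toward row H in them as well. Its group mean was 0.57 CPM in medium (row A), 0.96 in DMSO (row B), 0.99 in BAP (row C), 0.75 in CITCO 10 µM (row D), 1.18 in rifampin 20 µM (row E), 1.56 in WY-14643 (row F), 1.70 in CITCO 20 µM (row G) and 2.46 in rifampin 40 µM (row H). Against the group of their own row, a comparison chosen after seeing the data, Ccng1 was not called at NM 10 mM (log2 1.16 ± 0.61 against rifampin 40 µM, adjusted p = 0.275) or NE 10 mM (1.26 ± 0.61, adjusted p = 0.106). For Ccng1, concentration and row cannot be told apart outside those comparisons. Of the other members called at NE 10 mM, Cdkn1a was not called within row H (−0.38 ± 0.32, adjusted p = 0.387). Called there were Plk2 (0.96 ± 0.13), Btg2 (−1.09 ± 0.15), Gadd45a (−0.82 ± 0.19), Bax (−0.50 ± 0.13) and Phlda3 (−0.45 ± 0.14), and also Mdm2 (0.31 ± 0.11), where 33.9% of all probes were called. NM 10 mM differed from rifampin 40 µM in Mdm2 alone of the members (0.56 ± 0.11, adjusted p = 0.00137), where 3.42% were called. At 3 mM, against CITCO 20 µM in row G, Mdm2 was higher with NM (0.39 ± 0.11, adjusted p = 0.0284; 4.33% of all probes called) and no member was called with NE (4.75%). Mdm2 was itself lower in the CITCO 20 µM and rifampin 40 µM wells than in medium.

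**Figure D3:**
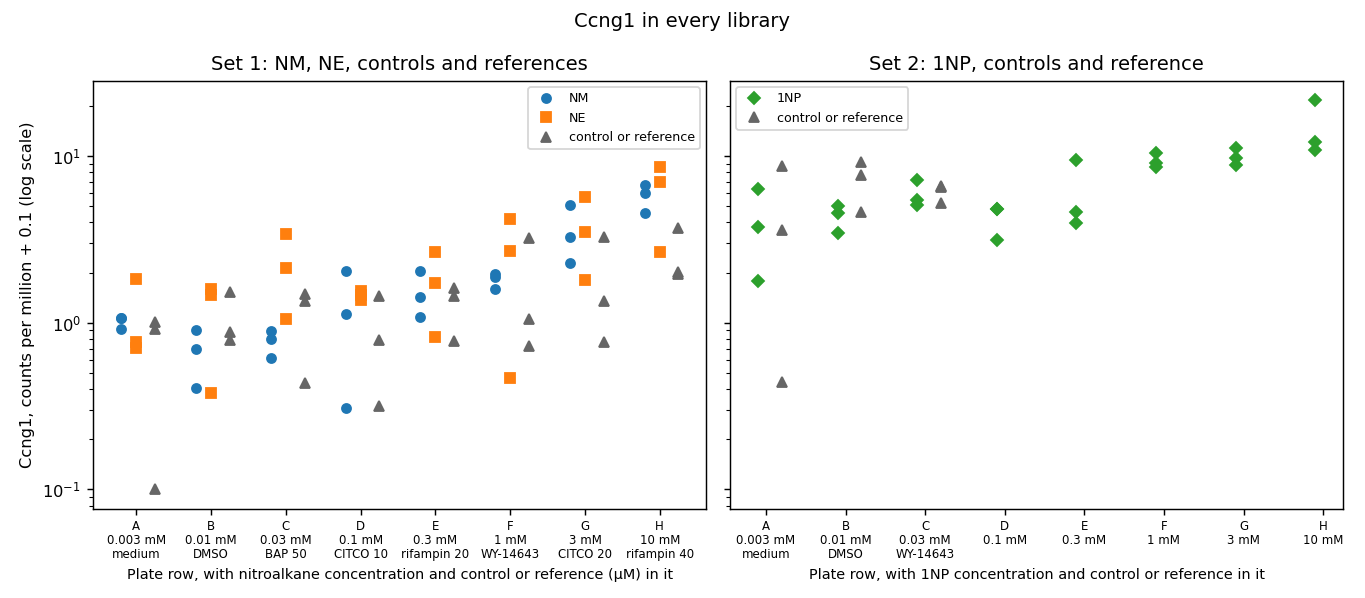
Ccng1 CPM plus 0.1 (vertical axis, log scale) in every library, by plate row and the nitroalkane concentration in it, for NM and NE with the controls and references of set 1 (left) and 1NP with those of set 2 (right). The nitroalkane points of row H lie above those of row A, and the control and reference means run from 0.57 CPM in row A to 2.46 CPM in row H in set 1.

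Gadd45a was the member that most often differed from DMSO at low concentrations. Of the 20 nitroalkane groups other than 10 mM and NE 3 mM, with 180 member tests, 14 calls were made against DMSO, 13 of them higher, and 11 of the 14 were Gadd45a, where 3.20% of all probe tests were called. With 1NP it was called at 7 of 8 concentrations. All calls within a set rest on the same DMSO libraries, so they are not independent of each other. At 1NP 0.003 mM it stood at 351, 321 and 271 CPM, at 10 mM at 298, 307 and 171 CPM, in DMSO of set 2 at 144, 147 and 135 CPM and in medium of set 2 at 302, 348 and 230 CPM. These 1NP libraries all lay above DMSO, and they overlapped the medium libraries, with replicate 3 of 10 mM (171 CPM) below the lowest of them. The log2 fold change against DMSO was 1.05 ± 0.16 at 0.003 mM (adjusted p = 0.000216) and 0.80 ± 0.16 at 10 mM (adjusted p = 0.00514), and against medium it was −0.10 ± 0.17 at 10 mM. The NE calls of Gadd45a at 0.01, 0.1 and 1 mM were lost without DMSO replicate 1 or 2 and without several other libraries (adjusted p up to 0.165, 0.0967 and 0.205), and that at 0.3 mM without DMSO replicate 2 (adjusted p = 0.0574). The 1NP call at 0.03 mM was lost without DMSO replicate 4 or 6 or 1NP 0.03 mM replicate 1 (log2 0.78 to 0.84, adjusted p up to 0.0575), and that at 3 mM without any DMSO library or 1NP 3 mM replicate 2 (log2 0.58 to 0.81, adjusted p up to 0.161). At 10 mM 1NP, 2.17% of all probes were called against DMSO and 10.2% against medium. At 0.003 mM 1NP, 2414 of the 12099 probes tested were called against DMSO.

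Medium itself differed from DMSO in Gadd45a in both sets. In set 1 medium stood at 262, 302 and 354 CPM and DMSO at 188, 181 and 205 CPM, a log2 difference of 0.64 ± 0.12 (adjusted p = 0.00112), the only member called where 7.06% of all probes were. In set 2 the difference was 0.94 ± 0.12 (adjusted p = 2.76e-05), and Bax (0.53 ± 0.13, adjusted p = 0.00531) and Phlda3 (0.54 ± 0.14, adjusted p = 0.0102) were also higher in medium, where 24.0% of all probes were called. The Phlda3 call was lost without DMSO replicate 4 (adjusted p = 0.0766). Against medium, the 20 lower nitroalkane groups gave 1 member call in 180 tests, Ccng1 at NM 3 mM, where 0.155% of all probe tests were called, and none for Gadd45a. The summed hepatocyte genes moved with the same groups, at 22016 to 23920 CPM in DMSO of set 2, 11587 to 15518 in medium and 12175 to 14156 at 1NP 0.003 mM; their part in the Gadd45a result was not tested.

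**Figure D4:**
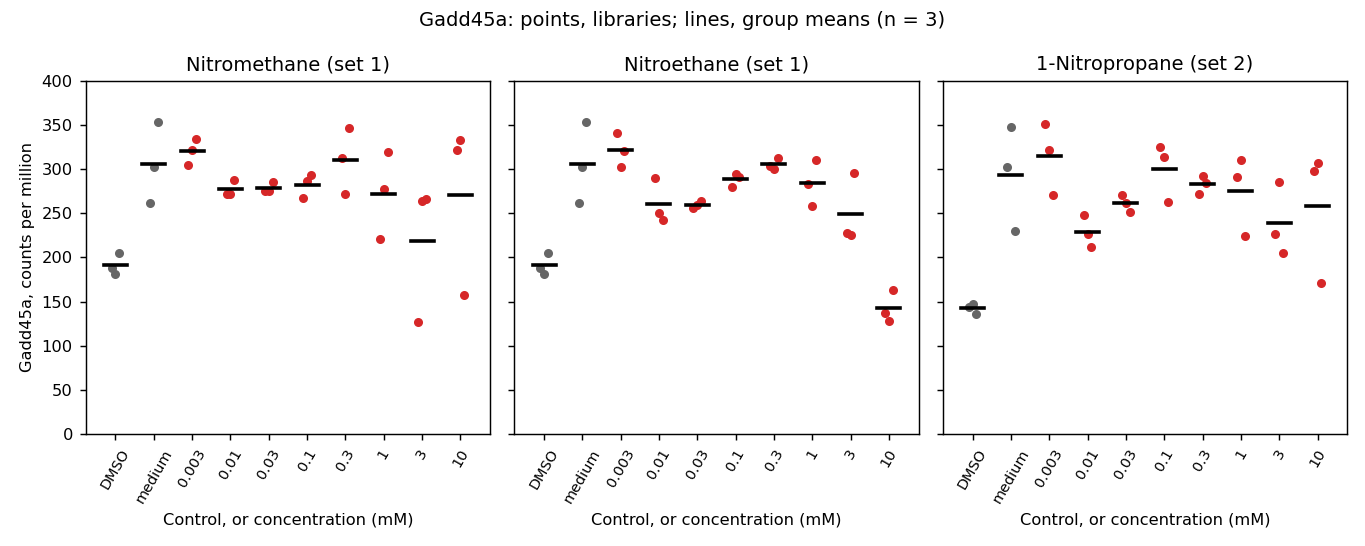
Gadd45a CPM (vertical axis) in DMSO, medium and each concentration (horizontal axis, mM) of NM, NE and 1NP, with points for libraries and lines for group means (n = 3). The DMSO libraries (181 to 205 CPM in set 1, 135 to 147 in set 2) lie below medium and below most nitroalkane libraries, and NE 10 mM (128 to 163 CPM) lies below both controls.

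The remaining low-concentration calls against DMSO were Bax at 1NP 0.003 mM (1341, 1169 and 1002 CPM against 700, 733 and 643, log2 0.67 ± 0.19, adjusted p = 0.0169), Btg2 at NE 0.3 mM (−0.67 ± 0.18, adjusted p = 0.0207) and Plk2 at NE 1 mM (181, 197 and 237 CPM, 0.57 ± 0.13, adjusted p = 0.0153). Of all probes tested, 2414 of 12099 were called at 1NP 0.003 mM, 652 of 12326 at NE 0.3 mM and 346 of 12326 at NE 1 mM. The Bax call was lost without DMSO replicate 6 or 1NP 0.003 mM replicate 1 or 2 (adjusted p up to 0.105), the Btg2 call without DMSO replicate 2 or 3 or NE 0.3 mM replicate 2 (up to 0.119), and the Plk2 call without any DMSO library or NE 1 mM replicate 3 (up to 0.0966). At 1NP 10 mM, replicate 3 stood apart in several members: Plk2 was at 115, 113 and 210 CPM, Bax at 921, 797 and 514, Btg2 at 61.3, 65.7 and 34.7, and Phlda3 at 50.2, 41.3 and 24.0. Without that library edgeR called Phlda3 against DMSO (log2 0.50, adjusted p = 0.0442), and Ccng1 was no longer called against medium (log2 2.02, adjusted p = 0.104). How many of all probes were called without it is not given here. Of the 42 tested wider p53 probes, 2 rose against DMSO at 1NP 10 mM, where 2.17% of all probes were called. They were Gadd45g, a relative of Gadd45a (1.45 ± 0.23), and Pmaip1 (0.74 ± 0.20). Against medium 3 rose and 1 fell, where 10.2% of all probes were called. Gadd45g (1.20 ± 0.23), Chek1 (1.17 ± 0.30) and Ninj1 (1.12 ± 0.24) rose and Gdf15 fell by 1.01 ± 0.27. No p21-lowered cell cycle probe was called (0 with DMSO and 0 with medium at an unadjusted p under 0.05).

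CITCO, rifampin and WY-14643 are used as activators of the nuclear receptors CAR, PXR and PPAR-alpha, and they gave few member calls here. Whether each activated its receptor in these rat cells was not tested. In 54 member tests against DMSO there were 2, where 1.90% of all probe tests were called, and in 54 against medium there were 4, where 7.20% were. Mdm2 was counted at 122, 127 and 156 CPM with CITCO 20 µM, below every DMSO (173 to 179 CPM) and medium library (192 to 214 CPM). It fell by 0.41 ± 0.09 log2 against DMSO (adjusted p = 0.0266) and by 0.58 ± 0.09 against medium (adjusted p = 4.79e-05). With rifampin 40 µM, at 145, 161 and 177 CPM, Mdm2 fell by 0.38 ± 0.09 against medium (adjusted p = 0.0194) and differed from DMSO by −0.21 ± 0.09. Gadd45a fell against medium with CITCO 20 µM (207, 158 and 161 CPM, −0.79 ± 0.12) and with WY-14643 of set 2 (175, 187 and 199 CPM, −0.57 ± 0.12), and rose against DMSO with rifampin 20 µM (279, 272 and 296 CPM, 0.52 ± 0.12, adjusted p = 0.0179). The Mdm2 call for CITCO 20 µM against DMSO was lost without any DMSO library or CITCO 20 µM replicate 1 or 2 (adjusted p up to 0.170). That for rifampin 40 µM was lost without its replicate 1 or 2 or medium replicate 1 or 3 (up to 0.144), and the rifampin 20 µM Gadd45a call without DMSO replicate 1 or 2 or rifampin 20 µM replicate 1 or 3 (up to 0.131).

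The nitroalkanes were compared with each other at matched concentrations, NM with NE directly at 8 concentrations and the effect of 1NP with that of NM or NE at 8 each, with p-values adjusted over all probes of a comparison. At 10 mM, Phlda3 was higher with NM than with NE (51.6, 52.4 and 81.7 against 31.2, 36.0 and 29.3 CPM, log2 0.89 ± 0.23, adjusted p = 0.0419) and Plk2 was lower (138, 133 and 190 against 226, 307 and 266 CPM, −0.84 ± 0.20, adjusted p = 0.0301), where 11.7% of all probes were called. The 2 compounds' libraries did not overlap in either gene. Each call was lost when any of NE 10 mM replicates 1, 2 or 3 or NM 10 mM replicates 1 or 2 was left out, with log2 0.68 to 1.00 for Phlda3 (adjusted p up to 0.171) and −0.99 to −0.76 for Plk2 (adjusted p up to 0.142). The differences that missed the threshold had wide 95% intervals, so the missed threshold does not show that the compounds act alike. The intervals were 0.36 to 1.23 for Btg2, 0.25 to 1.50 for Gadd45a and 0.16 to 1.03 for Bax, all above 0. They are not adjusted for the number of probes and, with few libraries, are narrower than the F test implies. They were −0.22 to 1.26 for Cdkn1a, −0.10 to 0.60 for Mdm2, −0.997 to 0.772 for Ccng1 and −2.61 to 0.44 for Sesn1. Without NM 10 mM replicate 3, which stood apart, edgeR called Gadd45a (log2 1.16, adjusted p = 0.00102) and Btg2 (log2 0.82, adjusted p = 0.00702) higher with NM. The share of all probes called in that fit is not given, so the gain may not be particular to these members. Below 10 mM no member was called by edgeR in 60 member tests of NM against NE (4 at an unadjusted p under 0.05), where 0.00378% of all probe tests were called.

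For 1NP, which lay in the other set, the effect against its own control was set against the effect of NM or NE. At 10 mM no member was called in edgeR with either control (5 of 18 tests with DMSO and 2 of 18 with medium at an unadjusted p under 0.05), where 0% of all probes were, and the intervals were wide. Without 1NP 10 mM replicate 3, the library that stood apart, 5 members differed between the 1NP and NE effects from DMSO: Gadd45a (1.48, adjusted p = 1.1e-05), Btg2 (1.08), Phlda3 (0.78) and Bax (0.76) were higher and Plk2 lower (−0.87), where 26.0% of all probes were called. With DMSO the difference of the 1NP and NE effects was 1.28 for Gadd45a (95% interval 0.73 to 1.82), 0.86 for Btg2 (0.29 to 1.44) and −1.52 for Ccng1 (−2.77 to −0.28). That of the 1NP and NM effects was −1.42 for Ccng1 (−2.48 to −0.35) and 0.40 for Gadd45a (−0.37 to 1.16). Below 10 mM, 126 member tests with DMSO gave 7 calls, where 2.11% of all probe tests were called. Of the 7, 4 came from 1NP against NE at 0.1 mM, where 15.4% of all probes were called, and 1 each from NM at 0.003 mM (6.53%), NE at 0.03 mM (5.40%) and NM at 0.1 mM (1.36%). With medium, the same 126 tests gave 0 (5 at an unadjusted p under 0.05), where 0.154% were. BAP and the nitroalkanes were given at different concentrations, and no test compared them. The log2 fold changes against DMSO at BAP 50 µM, NM 10 mM, NE 10 mM and 1NP 10 mM were 1.19, 0.11, −0.42 and 0.58 for Cdkn1a. For Mdm2 they were 0.73, 0.35, 0.09 and 0.07. The Cdkn1a values depend on the control. Its mean was 8.11 CPM in medium against 5.05 in DMSO of set 1, and 6.47 against 3.57 in set 2, where 1NP lay. Against medium Cdkn1a was not called under BAP.

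**Figure D5:**
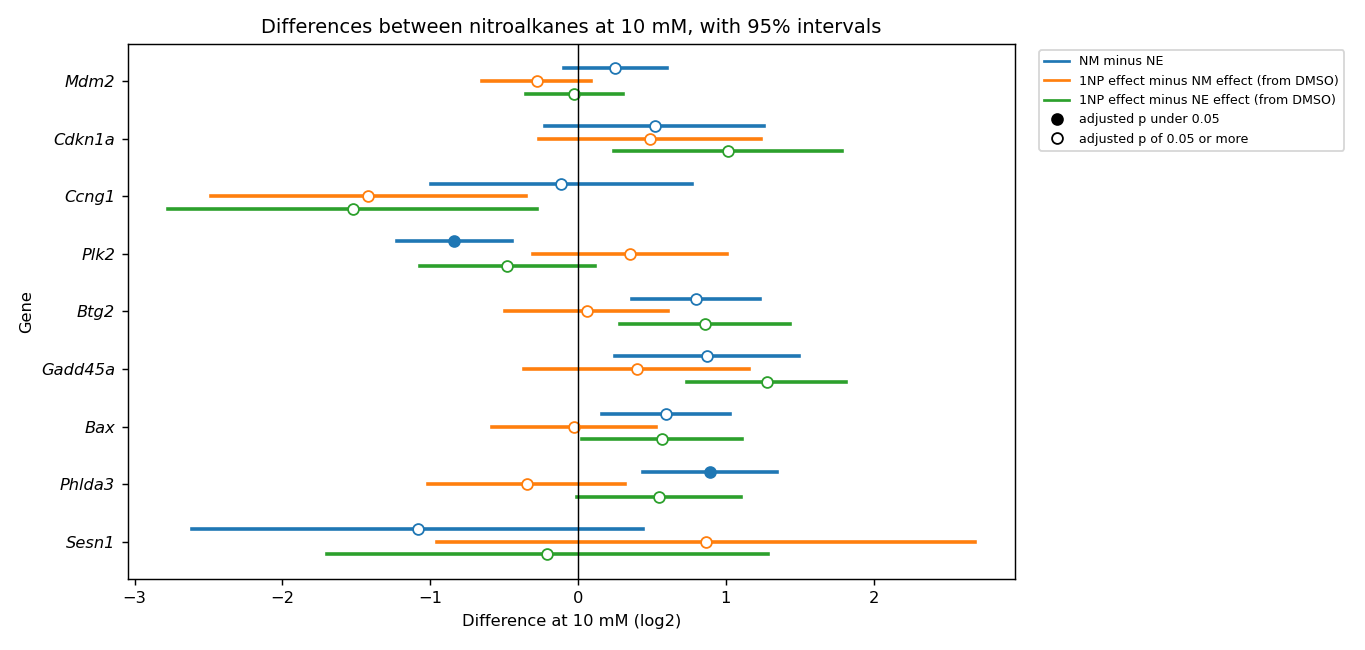
Differences at 10 mM (horizontal axis, log2) between NM and NE and between the effect of 1NP and that of NM or NE against DMSO, for the 9 genes (vertical axis), with lines for 95% intervals and filled circles where the adjusted p was under 0.05. Filled circles stand only on Plk2 (−0.84) and Phlda3 (0.89) of the NM and NE comparison.

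Across the 35 group means, centred within each set, the members varied together only in part. Bax and Gadd45a had the highest correlation of the 36 member pairs (Pearson r = 0.77), followed by Bax with Btg2 (r = 0.64), while Plk2 and Btg2 had the lowest (r = −0.62). Mdm2 and Cdkn1a had r = 0.39, and Ccng1 was below 0 with every other member except Plk2 (r = 0.32). These correlations describe group means that share controls, plates and library depth. Among all probes with a mean of at least 10 CPM, the patterns most like that of Mdm2 were those of LOC102553917 (r = 0.86), Ift80 (0.86) and Coq4 (0.83). For Cdkn1a they were Scrn2 (r = 0.77), Bmf (0.76) and Cyp3a9 (0.76), and for Ccng1 LOC108348078 (r = 0.94), Ube2k (0.92) and Clk1 (0.92).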

How the data were processed

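Gene expression was measured by TempO-Seq in 105 libraries. Values deposited by the authors were untransformed read counts for each probe, with no normalization; per the submitters' processing notes FastQC, Bowtie, R 3.5.3 and DESeq2 1.28.1 were used, with no role given, and neither the build nor the aligner version is given in the sources used here. Totals per library ran from 5475419 to 11122665 counts, so 3 counts equal 0.27 to 0.55 CPM; counts cover sampling error only. Groups and plate positions came from the labels. Counts were tested with edgeR 4.0.16 in R 4.3.3 (filterByExpr with a minimum count of 10 and total of 15, TMM scaling, quasi-likelihood F test, Benjamini-Hochberg adjustment over all probes, called under 0.05). Each nitroalkane was fitted with 1 control of its set (27 libraries), the references together (24 libraries in set 1, 9 in set 2), NM against NE with 6 libraries and 1NP against NM or NE with 12. The fit was tested on simulated counts. Errors are standard errors of log2 fold changes, and 95% intervals use the normal distribution. Same-numbered libraries of set 1 were checked for pairing: deviations from group means correlated above 0.1 in all 3 pairs in 2 of 10 comparisons (BAP and NE 3 mM against DMSO), and the replicate block is given there where it changed a call. The named genes are the 9 members, up to 6 called genes of the wider lists with the largest change and a mean of at least 10 CPM in each main comparison, and the 3 most similar patterns (r of log2(CPM + 1) group means) for Mdm2, Cdkn1a and Ccng1. The members and lists were chosen with earlier results of these data known. Alternatives were DESeq2 1.42.0, other scaling, no filter, fits of 2 groups or of a whole set, and leaving out libraries. Formaldehyde wells were not analysed here. The result of 1 gene that the naming rule selected is not reported here.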

Additional observations from a re-analysis of the deposited data

Results flagged for a closer look

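The results listed here are differences between nitroalkanes that passed edgeR's test of the difference itself (adjusted p under 0.05). NM exceeded NE at 10 mM by 0.89 log2 in Phlda3 (adjusted p = 0.0419), and in Plk2 NM lay below NE (−0.84, adjusted p = 0.0301). The other 7 compare the 1NP effect with that of NM or NE, each against its own DMSO, below 10 mM. Gadd45a gave 3 of them: 0.41 against NE at 0.03 mM (adjusted p = 0.00747), 0.47 against NE at 0.1 mM (adjusted p = 0.00653) and 0.52 against NM at 0.1 mM (adjusted p = 0.0440). Btg2 gave 2: 0.47 against NM at 0.003 mM (adjusted p = 0.0420) and 0.59 against NE at 0.1 mM (adjusted p = 0.0140). At 0.1 mM against NE, Bax differed by 0.45 (adjusted p = 0.0146) and Mdm2 by −0.39 (adjusted p = 0.0182). Of all probes, 15.4% were called in the 0.1 mM comparison with NE, which holds 4 of the 7, 6.53% in that with NM at 0.003 mM, 5.40% in that with NE at 0.03 mM and 1.36% in that with NM at 0.1 mM. With medium in place of DMSO none of these 7 was called, and 1NP was run in another set than NM and NE, so compound and set cannot be told apart in them. Groups of 3 libraries are too small for a test of single outlying values.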

How the results depend on the processing

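Values here are numbers of the 9 members called (or member calls summed over comparisons), with the number reported in parentheses. The share of all probes called under each setting is not given beside them. These counts thus do not show whether calls of the members changed more than those of other probes. With only the 2 groups compared in the fit, NM 10 mM gave 0 against DMSO (3) and 0 against medium (1), NE 3 mM against DMSO 2 (1), 1NP 10 mM 0 against each control (1), and the lower concentrations 39 against DMSO (14) and 2 against medium (1). Without the libraries that stand apart, NM 10 mM against medium gave 2 (1), NE 3 mM against DMSO 2 (1), 1NP 10 mM 2 against DMSO (1) and 0 against medium (1), the NM slopes 2 each (1), the 1NP slope from DMSO 3 (1), and the lower concentrations 31 against DMSO (14) and 2 against medium (1). DESeq2 gave 2 for NE 3 mM against DMSO, 2 and 3 for the NM slopes from DMSO and medium, and 2 for each 1NP slope, against 1 each. Without the filter, NE 3 mM against medium gave 1 (2), 1NP 10 mM against medium 2 (1), the 1NP slope from medium 3 (1), the lower concentrations against medium 4 (1) and CITCO, rifampin and WY-14643 against medium 8 (4). In 1 fit of the whole set the NM slopes and the 1NP slope from medium gave 2 (1 each), and the references against DMSO 0 (2). Without the 10 mM wells the NE slopes gave 2 each (5 and 7) and the 1NP slope from medium 0 (1), and the NE slopes from DMSO of Bax (0.0075) and Gadd45a (0.027) turned to above 0. The replicate block gave 3 for NE 3 mM against DMSO (1) and changed no other count by more than 1.5 times; 1NP shares no replicate numbers with its controls, so no block was fitted there. With medium as the control, the 1NP effects below 10 mM gave 0 against 7. Within plate rows NM 10 mM gave 1 (against 3 with DMSO), and NE 3 mM 0 (against 1 with DMSO and 2 with medium). Leaving out each library in turn gave 1 to 3 for NM 10 mM against DMSO and 0 to 1 against medium, 0 to 1 for NE 3 mM against each control, 4 to 5 and 6 to 7 for NE 10 mM, 1 to 2 and 0 to 3 for 1NP 10 mM, 4 to 5 and 2 to 4 for BAP, 0 to 4 for NM against NE at 10 mM, 0 to 5 for the 1NP and NE effects at 10 mM, 1 to 2 and 1 to 3 for the NM slopes, 1 to 3 for the 1NP slopes, 8 to 15 and 0 to 3 for the lower concentrations, and 0 to 2 for the references against DMSO. RLE scaling changed no member's call. Ccng1, Sesn1 and Cdkn1a rest on few counts, which limits the fold change that can be detected in them. Leaving out libraries was not run for the wider lists.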

Other observations

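Replicate 3 of 1NP 10 mM lay away from the other libraries of its own group in Btg2, Bax, Gadd45a, Plk2 and Phlda3. In these members it lay nearer to the NE 10 mM libraries, but within their range only in Btg2 and Bax. The members were picked after their values were seen, and the share of all probes with such a pattern was not counted. NE lay in the other set, and these CPM were not set against the controls of each set. Btg2 was at 34.7 CPM in that library, at 28.6 to 36.4 CPM in the NE 10 mM libraries, and at 61.3 and 65.7 CPM in replicates 1 and 2 of 1NP 10 mM. Bax was at 514 CPM in that library, at 475 to 561 CPM in the NE 10 mM libraries, and at 921 and 797 CPM in replicates 1 and 2 of 1NP 10 mM. Gadd45a was at 171 CPM in that library, at 128 to 163 CPM in the NE 10 mM libraries, and at 298 and 307 CPM in replicates 1 and 2 of 1NP 10 mM. Plk2 was at 210 CPM in that library, at 226 to 307 CPM in the NE 10 mM libraries, and at 115 and 113 CPM in replicates 1 and 2 of 1NP 10 mM. Phlda3 was at 24.0 CPM in that library, at 29.3 to 36.0 CPM in the NE 10 mM libraries, and at 50.2 and 41.3 CPM in replicates 1 and 2 of 1NP 10 mM. Mdm2 was at 169 CPM in replicate 3 and at 164 and 164 CPM in replicates 1 and 2.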
